A study of Mus musculus with 12 samples.

Results

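The NRF2 antioxidant genes described here are 10 genes: Nfe2l2, which encodes the transcription factor NRF2, its repressor Keap1, and 8 genes known as NRF2 targets, Nqo1, Gclc, Gclm, Txnrd1, Srxn1, Slc7a11, Hmox1 and Sqstm1. The genes were chosen by name, with earlier results of these data known, and matched by symbol to Ensembl identifiers. All 10 were found among the 54532 genes of the expression table. All 10 also passed the filter on low values, with 11335 genes tested in all. RNA sequencing compared mouse macrophages with osteoclasts, the bone-resorbing cells that arise from the macrophage lineage, each with and without lipopolysaccharide (LPS), a component of the outer membrane of gram-negative bacteria. The 12 libraries formed 4 groups of 3. In every group the cells came from the bone marrow of wild-type mice and were expanded in CMG, a culture supplement that supplies M-CSF. Macrophages received no RANKL, the cytokine that drives osteoclast formation, whereas osteoclasts received RANKL, given in the sample source as 100 ng/mL. LPS was added at 100 ng/mL for 3 h on day 5, and the untreated groups of both cell types received none. Age and sex of the mice are not given in the sources used here. Nothing says that the 3 libraries of a group came from separate mice or cultures, so p-values measure only the spread between these libraries, which may be technical.

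NRF2 is held at a low level by KEAP1, an adaptor that hands it to a ubiquitin ligase for degradation. Electrophiles and oxidants modify cysteines of KEAP1, after which NRF2 accumulates, pairs with a small MAF protein and binds antioxidant response elements in its target genes, while BACH1 competes for the same elements. Much of this control acts on the proteins, so the RNA level of Nfe2l2 is not a measure of NRF2 activity. In macrophages the pathway is known for limiting oxidative damage and inflammatory gene expression, and in osteoclast precursors reactive oxygen species are known to take part in RANKL signalling.

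Each library held between 15651957 and 20281568 reads assigned to genes, recovered from the FPKM values, which are fragments per kilobase of gene length relative to a library-wide scale. Replicates differed by more than counting noise: chi-square divided by its degrees of freedom was 2.54 to 5.90 in 3 of the groups and 7.36 to 11.6 between LPS-treated osteoclast libraries. All 10 osteoclast markers were higher in osteoclasts, with summed levels of 29794 to 31237 FPKM untreated against 16.3 to 20.5 FPKM in untreated macrophages, where Calcr was at 0. The 10 macrophage markers summed to 4830 to 5061 FPKM in untreated macrophages and to 1825 to 1913 FPKM in untreated osteoclasts, with 9 of the 10 lower there. Mrc1 and Cx3cr1 were at 2.57 and 0.486 FPKM in untreated osteoclasts and Csf1r at 310.2 FPKM against 441 FPKM in macrophages. The exception was Cd68, at 1402 against 670.2 FPKM, which made up most of the osteoclast sum. Summed markers of T and NK cells, erythroid cells and mast cells stayed at or below 0.443 FPKM in every library, with Cd3d, Cd3g, Nkg7, Ncr1, Hba-a2, Hbb-bs, Hbb-bt, Fcer1a and Tpsb2 at 0. The stromal list summed to 27.6 to 38.5 FPKM in untreated macrophages and 30.2 to 36.9 FPKM after LPS, against 0.762 to 1.80 FPKM in osteoclast libraries. For the B cell list the macrophage range was 16.7 to 20.2 FPKM, carried by Ighm with Igll1 at 0, and the osteoclast maximum was 0.142 FPKM. The neutrophil list summed to 5.70 to 16.4 FPKM in macrophages and to at most 1.88 FPKM in osteoclasts, with Ly6g and Elane at 0 in untreated macrophages. The megakaryocyte list, carried by Pf4, summed to 598 to 686 FPKM in untreated and 856 to 930 FPKM in LPS-treated macrophages, against 8.24 to 19.6 FPKM in osteoclasts. The dendritic cell list summed to 0.259 to 0.280 FPKM in untreated and 5.62 to 6.37 FPKM in LPS-treated macrophages, and to 0.611 to 0.692 FPKM in untreated and 1.34 to 1.84 FPKM in LPS-treated osteoclasts. These lists move with cell type or with LPS, and their part in the results below was not tested. In such bulk samples fewer cells of a type and less RNA per cell cannot be told apart.

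LPS changed 9 of the 10 genes in macrophages, where 69.9% of all genes tested were called, and 7 of the 10 in osteoclasts, where 17.7% were, but not in a single direction. Slc7a11, Sqstm1 and Txnrd1 rose in both cell types and by more in macrophages. Hmox1, Gclc and Gclm fell in both. Without LPS, osteoclasts held less Hmox1, Gclc, Gclm, Nfe2l2, Keap1 and Nqo1 RNA than macrophages. After LPS all 10 genes were lower in osteoclasts, of which 9 were still called with quantile normalization. That comparison called 83.9% of all genes tested, with 43.0% of all genes tested called lower. Values below are FPKM per library in replicate order, and log2 differences were taken after adding 1 FPKM, so that weakly expressed genes show smaller differences than their ratios. Tests are limma's, with Benjamini-Hochberg adjusted p-values over the 11335 genes, and a gene is called at an adjusted p under 0.05.

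**Figure D1:**
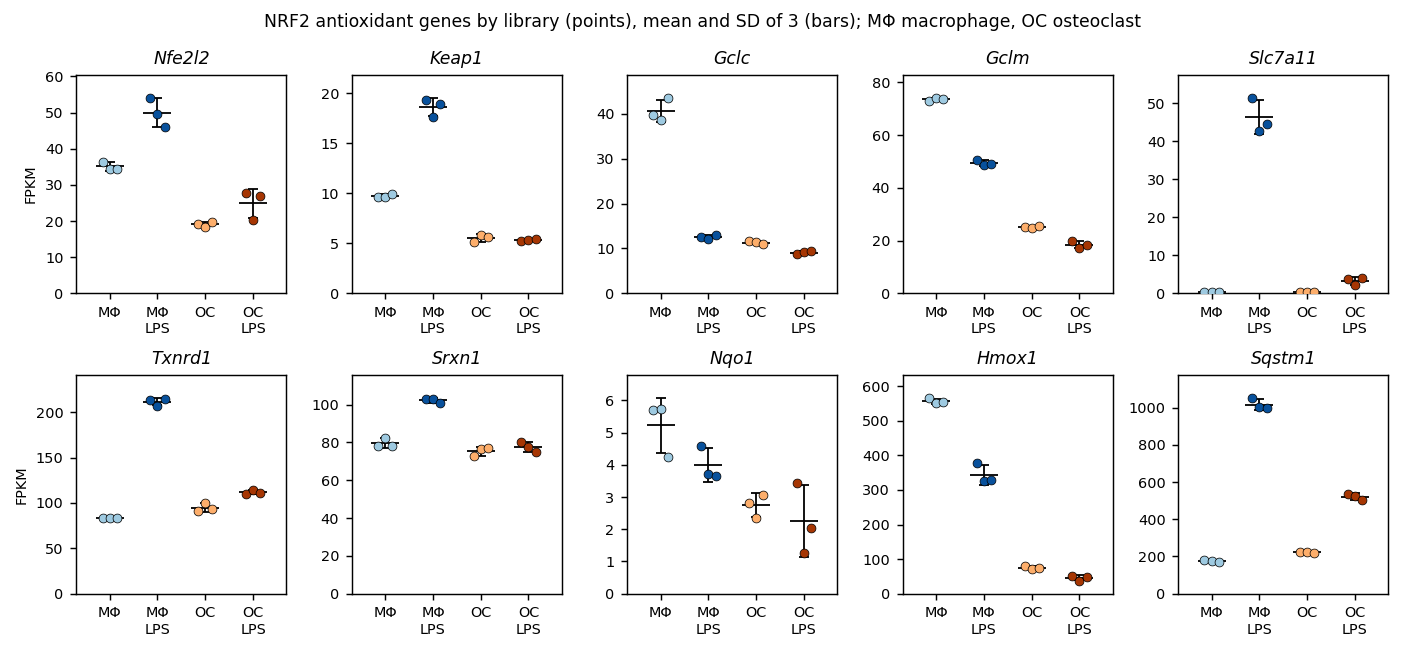
FPKM (vertical axis, from 0, own scale per gene) of the 10 genes in untreated and LPS-treated macrophages (MΦ) and osteoclasts (OC); points are libraries and bars the mean and SD of 3. Slc7a11 and Sqstm1 stand highest in LPS-treated macrophages, with means of 46.3 and 1017 FPKM, while Hmox1, Gclc and Gclm stand highest in untreated macrophages.

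Among the regulators, Nfe2l2 (ENSMUSG00000015839, chr2:75675513-75704641, minus strand) encodes the transcription factor itself. Its levels in untreated macrophages were 36.5, 34.5 and 34.5 FPKM, and after LPS 54.1, 49.7 and 46.0 FPKM. In osteoclasts they were 19.3, 18.3 and 19.6 FPKM untreated and 27.6, 20.3 and 26.9 FPKM after LPS. Macrophages were above osteoclasts in all libraries of either treatment, and LPS-treated libraries were above untreated ones in both cell types without overlap, although the second LPS-treated osteoclast library was close to the untreated range. The LPS effect in macrophages was a log2 difference of 0.49 ± 0.10 (SE; 1.42-fold, adjusted p = 6.62e-04), but it was -0.14 when rescaled to TPM, a unit in which every library has the same total, and -0.10 with quantile normalization. In osteoclasts LPS gave 0.36 ± 0.10 (SE; 1.31-fold, adjusted p = 0.0247). That call was lost in 5 of the 12 fits that left out 1 library: without untreated osteoclast replicates 1, 2 and 3 the adjusted p was 0.0584, 0.0821 and 0.0547, and without LPS-treated osteoclast replicates 1 and 3 it was 0.0980 and 0.0823. Untreated osteoclasts held 54.3% of the macrophage level (log2 difference -0.85 ± 0.10 SE, adjusted p = 5.23e-06; -1.28 with TPM), and LPS-treated osteoclasts 50.0% (-0.98, adjusted p = 1.07e-06).

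Keap1 (ENSMUSG00000003308, chr9:21229730-21239361, minus strand) encodes the adaptor that marks NRF2 for degradation. Its levels were 9.68, 9.67 and 9.93 FPKM in untreated macrophages and 19.3, 17.6 and 18.9 FPKM after LPS. Osteoclasts had 5.09, 5.86 and 5.62 FPKM untreated and 5.20, 5.29 and 5.43 FPKM after LPS. LPS-treated macrophages stood apart from all other libraries, while both osteoclast groups overlapped. The gene rose 1.91-fold in macrophages (log2 difference 0.87 ± 0.05 SE, adjusted p = 1.59e-08), against a log2 difference of -0.05 ± 0.05 (SE, adjusted p = 0.591) in osteoclasts. The difference between these LPS effects, osteoclast minus macrophage, was -0.91 ± 0.07 (SE, adjusted p = 5.41e-07 for the interaction). With TPM the macrophage effect was 0.28 and the interaction -0.40, and with quantile normalization the macrophage effect was 0.57, all still called. Osteoclasts were lower by a log2 difference of -0.72 untreated (adjusted p = 5.91e-08; -1.19 with TPM) and of -1.64 after LPS (adjusted p = 2.10e-11), the latter 3.51-fold. The ratio of Nfe2l2 to Keap1 FPKM, in which library scaling cancels, was 3.60 ± 0.152 (SD, n = 3) in untreated macrophages and 2.68 ± 0.216 after LPS. It was 3.47 ± 0.335 in untreated osteoclasts and 4.70 ± 0.773 after LPS. The mean ratio was thus lower with LPS in macrophages and higher in osteoclasts, a difference that was not tested. Treated osteoclast libraries had ratios of 5.319, 3.835 and 4.953, the second close to the untreated osteoclast maximum of 3.79. An antisense gene, Gm16754, shares 510 bases with Keap1, held 0.645% to 3.68% as many reads, and cannot be told apart from it there unless strand was used in counting, which the sources used here do not state.

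NRF2 binds antioxidant response elements, so the 250 bases before each RefSeq start site (GRCm38.p6) were searched on both strands. The letters sought were the core of that element, TGACNNNGC, and the AP-1 site, TGANTCA. The amino acid response element bound by ATF4, TGATGCAA, was also sought. RefSeq promoter entries matched 8 of the 10 genes, with 10 windows. The antioxidant core was present in 10.2% of all 32851 windows of that length, and in the windows of Nfe2l2, Gclm and a second start of Txnrd1. The AP-1 letters were in 6.75% of windows and present more than once in 0.338%, among them Srxn1. The amino acid response letters were in 0.791% of windows, and 2 windows of all 32851 held them more than once, 1 of which was that of Slc7a11. None of these matches overlapped another, and a match describes letters, not a bound site. The stretches below show where these letters fall beside the genes whose values follow; they run 5′ to 3′ on the gene's strand, with the matched letters in capitals.
Nfe2l2, chr2:75704870-75704913, minus strand, antioxidant core: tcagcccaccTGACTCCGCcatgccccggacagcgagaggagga
Gclm, chr3:122245398-122245456, plus strand, antioxidant core read on the other strand: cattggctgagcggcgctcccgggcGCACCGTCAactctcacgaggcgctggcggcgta
Txnrd1, chr10:82859089-82859147, plus strand, antioxidant core read on the other strand: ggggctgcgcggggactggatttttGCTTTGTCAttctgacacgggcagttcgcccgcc
Srxn1, chr2:152105397-152105510, plus strand, AP-1 letters: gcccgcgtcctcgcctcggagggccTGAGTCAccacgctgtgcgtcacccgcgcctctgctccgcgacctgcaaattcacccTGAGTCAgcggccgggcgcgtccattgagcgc
Slc7a11, chr3:50443628-50443704, minus strand, amino acid response letters on each strand: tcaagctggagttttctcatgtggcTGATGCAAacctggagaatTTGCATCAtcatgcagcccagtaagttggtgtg

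In the Slc7a11 window the matches lay at -66 to -59 and, on the opposite strand, at -47 to -40 from the start. Those of Srxn1 lay at -102 to -96 and at -45 to -39. The match at -45 runs on as TGAGTCAgc, which differs from the searched antioxidant core only by G in place of C. That variant was not searched, so Srxn1 is not shown to lack an antioxidant element. The antioxidant core of Gclm lay at -134 to -126, that of Txnrd1 at -92 to -84, and that of Nfe2l2 at -240 to -232. The windows of Keap1, Nqo1 and Sqstm1 held none of the searched letters. Sequence outside the 250 bases was not searched, so this does not show that these genes lack such elements.

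Slc7a11 (ENSMUSG00000027737, chr3:49892526-50443614, minus strand) encodes xCT, the cystine-importing subunit of the cystine/glutamate antiporter, which feeds glutathione synthesis. It was low in untreated cells, at 0.291, 0.278 and 0.258 FPKM in macrophages and 0.257, 0.276 and 0.237 FPKM in osteoclasts. After LPS it reached 51.4, 42.8 and 44.7 FPKM in macrophages and 3.72, 2.12 and 4.07 FPKM in osteoclasts. Treated and untreated libraries did not overlap in either cell type, nor did treated macrophages and treated osteoclasts, whereas the untreated groups overlapped. The ratio of means was 168-fold in macrophages (log2 difference 5.21 ± 0.14 SE, adjusted p = 1.41e-11) and 12.9-fold in osteoclasts (1.74 ± 0.14 SE, adjusted p = 4.39e-06). The interaction was -3.47 ± 0.20 (SE, adjusted p = 3.87e-08), and the same difference taken between ratios of means without the added 1 FPKM was -3.71. After LPS osteoclasts held 7.12% of the macrophage level (14.0-fold lower, log2 difference -3.49 ± 0.14 SE, adjusted p = 2.45e-10). Without LPS the log2 difference was -0.02 (adjusted p = 0.898), and 0.12 after quantile normalization.

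The partner subunit of xCT, Slc3a2, was already at 71.3 ± 1.23 FPKM (SD, n = 3) in untreated macrophages and rose to 138 ± 6.28 FPKM after LPS (log2 difference 0.94 ± 0.04 SE, adjusted p = 4.40e-10; 0.30 with TPM and 0.15 with quantile normalization). In osteoclasts Slc3a2 was at 37.6 ± 0.408 FPKM untreated and 39.4 ± 0.903 FPKM after LPS. The ratio of Slc7a11 to Slc3a2 FPKM was therefore 0.00387 and 0.338 in untreated and treated macrophages, and 0.00683 and 0.0836 in untreated and treated osteoclasts.

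Gclc (ENSMUSG00000032350, chr9:77754535-77794485, plus strand) encodes the catalytic subunit of glutamate-cysteine ligase, the rate-limiting enzyme of glutathione synthesis. Its levels were 39.6, 38.7 and 43.5 FPKM in untreated macrophages and 12.6, 12.1 and 12.9 FPKM after LPS. In osteoclasts they were 11.6, 11.3 and 11.0 FPKM untreated and 8.70, 9.13 and 9.38 FPKM after LPS. Untreated macrophages stood far above all other libraries, and no pair of groups overlapped. Gclc fell to 31.0% of the untreated level in macrophages (log2 difference -1.61 ± 0.05 SE, adjusted p = 3.73e-11) and to 80.1% in osteoclasts (-0.29 ± 0.05 SE, adjusted p = 0.00158). The interaction was 1.32 ± 0.07 (SE, adjusted p = 1.65e-08). Osteoclasts were 3.59-fold lower than macrophages without LPS (adjusted p = 1.27e-11) and 1.39-fold lower with LPS (log2 difference -0.43, adjusted p = 4.99e-06; -0.27 with quantile normalization).

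Gclm (ENSMUSG00000028124, chr3:122245557-122270732, plus strand) encodes the modifier subunit of the same ligase. Its levels were 73.1, 74.0 and 73.9 FPKM in untreated macrophages and 50.6, 48.7 and 49.0 FPKM after LPS. Untreated osteoclasts had 25.4, 24.9 and 25.6 FPKM and treated ones 19.9, 17.2 and 18.2 FPKM. The groups formed 4 separate levels. LPS lowered Gclm to 67.2% in macrophages (log2 difference -0.57 ± 0.05 SE, adjusted p = 2.74e-07) and to 72.9% in osteoclasts (-0.44 ± 0.05 SE, adjusted p = 2.95e-05). The macrophage effect was -1.22 with TPM and -1.26 with quantile normalization. The interaction missed the threshold at 0.13 ± 0.06 (SE, adjusted p = 0.115). It was called with TPM (0.69), with quantile normalization (0.75) and without LPS-treated osteoclast replicate 2 (0.17, adjusted p = 0.0203). Osteoclasts were 2.91-fold lower untreated (adjusted p = 2.12e-11) and 2.69-fold lower after LPS (adjusted p = 3.12e-11).

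The subunits of the ligase thus moved unequally in macrophages. The ratio of Gclc to Gclm FPKM, in which library scaling cancels, was 0.542, 0.523 and 0.589 in untreated macrophages and 0.249, 0.249 and 0.264 after LPS. In osteoclasts it was 0.459, 0.455 and 0.430 untreated and 0.438, 0.531 and 0.516 after LPS. Treated macrophages were lowest without overlap, and the osteoclast groups overlapped. Gclm overlaps Gm17494 on the opposite strand, which held at most 0.566% as many reads, and the pseudogene Gm6061 on the same strand, which held none.

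In the thioredoxin branch, Txnrd1 (ENSMUSG00000020250, chr10:82833951-82897712, plus strand) encodes cytosolic thioredoxin reductase, the selenoprotein that recharges thioredoxin with NADPH. Its levels were 83.8, 83.7 and 83.3 FPKM in untreated macrophages and 213, 207 and 214 FPKM after LPS. In osteoclasts they were 91.1, 100.0 and 93.7 FPKM untreated and 110.2, 115 and 111 FPKM after LPS. No pair of groups overlapped, and the treated macrophages were highest. Txnrd1 rose 2.53-fold in macrophages (log2 difference 1.33 ± 0.04 SE, adjusted p = 1.86e-11) and 1.18-fold in osteoclasts (0.24, adjusted p = 9.68e-04), with an interaction of -1.09 ± 0.05 (SE, adjusted p = 8.07e-09). The macrophage effect was 0.69 and the interaction -0.52 with TPM. With quantile normalization the effects were 0.52 in macrophages and 0.14 in osteoclasts and the interaction -0.38, all still called. Untreated osteoclasts were 1.14-fold higher than untreated macrophages (log2 difference 0.18, adjusted p = 8.92e-04), a direction that turned to -0.23 with TPM and -0.15 with quantile normalization, called in both. After LPS osteoclasts were 1.89-fold lower (log2 difference -0.91, adjusted p = 2.59e-10; -0.53 with quantile normalization).

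Srxn1 (ENSMUSG00000032802, chr2:152105516-152111376, plus strand) encodes sulfiredoxin, which restores overoxidised peroxiredoxins. Untreated macrophages had 77.9, 82.5 and 78.1 FPKM and treated ones 103, 103 and 101 FPKM. Untreated osteoclasts had 72.6, 76.7 and 76.9 FPKM and treated ones 80.4, 77.5 and 75.1 FPKM. Treated macrophages stood above the other 3 groups, and both osteoclast groups overlapped each other. LPS gave a 1.29-fold higher level in macrophages (log2 difference 0.36 ± 0.04 SE, adjusted p = 4.27e-06), which turned to -0.28 with TPM and -0.43 with quantile normalization and was called in both. In osteoclasts the log2 difference was 0.04 (adjusted p = 0.512), and -0.03 and -0.06 under those scalings. The interaction was -0.32 ± 0.05 (SE, adjusted p = 3.67e-04), but 0.26 with TPM and 0.37 with quantile normalization. Without LPS the cell types gave a log2 difference of -0.08 (adjusted p = 0.0929), called with TPM (-0.49) and quantile normalization (-0.40), and with LPS of -0.39 (adjusted p = 1.08e-06), which was -0.24 with TPM and -0.03 (adjusted p = 0.392) after quantile normalization.

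Sqstm1 (ENSMUSG00000015837, chr11:50199366-50210827, minus strand) encodes p62, a selective autophagy receptor that also binds KEAP1 and can release NRF2. Its levels were 180.2, 173 and 172 FPKM in untreated macrophages and 1051, 1003 and 996 FPKM after LPS. In osteoclasts they were 225, 224 and 221 FPKM untreated and 538, 527 and 501 FPKM after LPS. No pair of groups overlapped, and treated macrophages held the highest level of any of the 10 genes. Sqstm1 rose 5.80-fold in macrophages (log2 difference 2.53 ± 0.04 SE, adjusted p = 1.46e-13) and 2.34-fold in osteoclasts (1.22 ± 0.04 SE, adjusted p = 1.57e-09). The interaction was -1.31 ± 0.05 (SE, adjusted p = 2.17e-09). It was -0.73 with TPM and -0.52 with quantile normalization, where the macrophage effect was 1.68, all still called. Untreated osteoclasts were 1.27-fold above untreated macrophages (log2 difference 0.35, adjusted p = 4.00e-06), a direction that was -0.07 with TPM and -0.07 with quantile normalization, neither called. After LPS they were 1.95-fold lower (log2 difference -0.96, adjusted p = 1.92e-10; -0.59 with quantile normalization). Mrnip overlaps Sqstm1 on the opposite strand and held at most 0.212% as many reads.

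Hmox1 (ENSMUSG00000005413, chr8:75093621-75100589, plus strand) encodes haem oxygenase 1, which opens the haem ring to biliverdin, iron and carbon monoxide. It was the highest of the 10 in untreated macrophages, at 565, 551 and 553 FPKM, and stood at 377, 326 and 328 FPKM after LPS. Osteoclasts had 79.5, 70.8 and 75.6 FPKM untreated and 51.2, 37.8 and 48.0 FPKM after LPS. The groups formed 4 levels without overlap, with all osteoclast libraries below all macrophage libraries. LPS lowered it to 61.7% in macrophages (log2 difference -0.70 ± 0.10 SE, adjusted p = 3.60e-05) and to 60.6% in osteoclasts (-0.72 ± 0.10 SE, adjusted p = 2.36e-04). The macrophage effect was -1.35 with TPM and -1.63 with quantile normalization. The interaction was -0.02 ± 0.14 (SE, adjusted p = 0.905), but 0.55 (adjusted p = 0.00163) with TPM and 0.83 (adjusted p = 1.37e-04) with quantile normalization. Osteoclasts were 7.39-fold lower without LPS (log2 difference -2.87, adjusted p = 5.02e-11) and 7.52-fold lower with LPS (-2.89, adjusted p = 3.24e-11). Without LPS this was the widest gap between the cell types among the 10 genes.

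Nqo1 (ENSMUSG00000003849, chr8:107388225-107403206, minus strand) encodes the quinone reductase most often used as a readout of NRF2. It rested on 30 to 209 reads per library. Untreated macrophages had 5.69, 5.72 and 4.25 FPKM and treated ones 4.59, 3.71 and 3.67 FPKM. Untreated osteoclasts had 2.83, 2.36 and 3.07 FPKM and treated ones 3.45, 1.25 and 2.05 FPKM. Treated and untreated libraries overlapped in both cell types, and all macrophage libraries were above all osteoclast libraries. The LPS effect was -0.31 ± 0.20 (SE, adjusted p = 0.179) in macrophages, called after rescaling to TPM (-0.96, adjusted p = 0.00195), and -0.26 (adjusted p = 0.425) in osteoclasts. The osteoclast value was -0.51 (adjusted p = 0.0504) without LPS-treated osteoclast replicate 1 and -0.023 (adjusted p = 0.945) without replicate 2. Untreated osteoclasts held 52.7% of the macrophage level (log2 difference -0.72 ± 0.20 SE, adjusted p = 0.00548), and the log2 difference after LPS was -0.67 ± 0.20 (SE, adjusted p = 0.00790). The former was -1.24 with TPM, and the latter was -0.43 (adjusted p = 0.0304) without LPS-treated osteoclast replicate 2.

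Across the 10 genes, LPS in macrophages raised 6 and lowered 3, where 69.9% of all genes tested were called, 36.8% higher and 33.1% lower. In osteoclasts it raised 4 and lowered 3, where 17.7% of all genes were called, 11.1% higher and 6.59% lower. The median log2 difference of the 10 was 0.43 in macrophages and -0.0026 in osteoclasts, against 0.02 and 0.01 over all genes. The macrophage median of the 10 turned to -0.21 with TPM and -0.22 with quantile normalization, and the osteoclast median was -0.074 and -0.073. Libraries of both treatments did not overlap for 9 of the 10 genes in macrophages and 7 of the 10 in osteoclasts, against 74.0% and 34.0% of all genes. With TPM, where the median of all genes lay at -0.55 in macrophages and -0.06 in osteoclasts, the macrophage split was 4 higher and 5 lower, beside 1797 higher and 7933 lower of all genes. In osteoclasts the split with TPM was 4 and 3, beside 940 and 1221 of all genes. With quantile normalization, where those medians were -0.14 and -0.05, the macrophage split was 4 higher and 4 lower, beside 3051 and 5193 of all genes, and the osteoclast split 3 and 3, beside 947 and 1514.

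**Figure D2:**
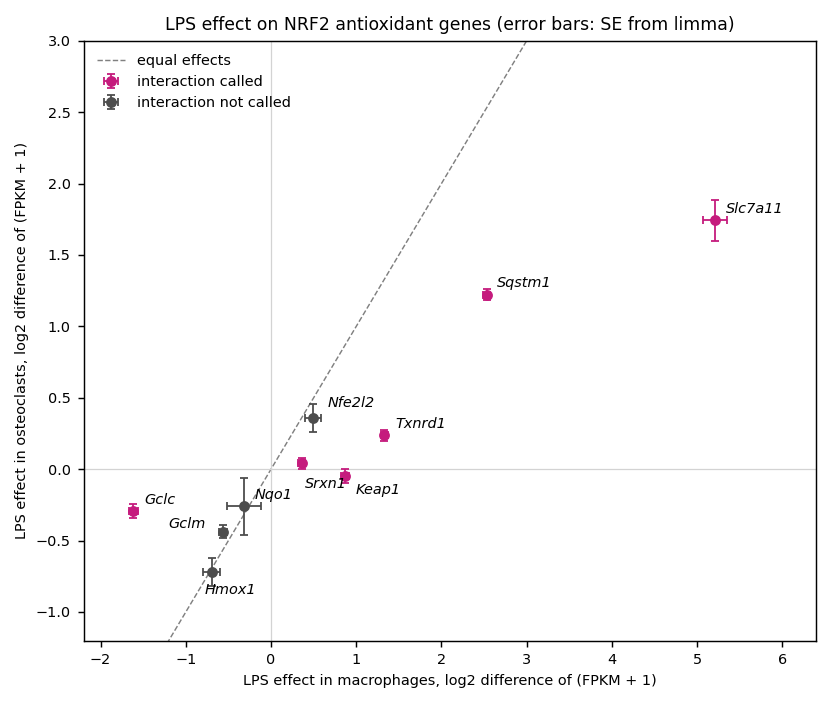
LPS effect on each of the 10 genes in macrophages (horizontal axis) and osteoclasts (vertical axis) as log2 differences of FPKM + 1, with the SE from limma as error bars and a dashed line where both effects are equal. Slc7a11, at 5.21 and 1.74, and Sqstm1, at 2.53 and 1.22, lie to the right of the line, Gclc, at -1.61 and -0.29, lies to its left, and Hmox1 lies on it.

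The LPS effect itself differed between the cell types for 6 of the 10 genes, where 56.6% of all genes tested had a called interaction (26.6% higher, 30.0% lower), so the share of the 10 was near that of all genes. The effect was lower in osteoclasts for Slc7a11, Sqstm1, Txnrd1, Keap1 and Srxn1 and higher, meaning less of a fall, for Gclc. Rescaling to TPM moved the median interaction of all genes to 0.51 and gave 5 higher and 4 lower calls among the 10, beside 7175 higher and 1572 lower of all genes. Quantile normalization moved it to 0.09 and gave 5 higher and 4 lower, beside 4090 and 2734 of all genes. For Nfe2l2 the interaction was -0.13 ± 0.14 (SE, adjusted p = 0.431), but 0.44 (adjusted p = 0.00909) with TPM and 0.38 with quantile normalization, and for Nqo1 it was 0.06 ± 0.28 (SE, adjusted p = 0.884). Of the 6 calls, that of Srxn1 was the one whose direction turned under these scalings.

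Between cell types without LPS, 2 of the 10 genes were called higher in osteoclasts, Sqstm1 and Txnrd1, and 6 lower, where 77.8% of all genes were called, 38.8% higher and 39.0% lower. With LPS all 10 were called lower, where 83.9% of all genes were called, 40.9% higher and 43.0% lower. The median log2 difference of the 10 was -0.72 without and -0.97 with LPS, against 0.00 and -0.02 over all genes. With TPM these medians of the 10 were -1.21 and -0.82, and with quantile normalization -0.71 and -0.64. Libraries of both cell types did not overlap for 9 and 10 of the genes, against 81.4% and 83.6% of all genes. With TPM the split without LPS became 0 higher and 8 lower, beside 2760 higher and 6457 lower of all genes with their median at -0.38. Quantile normalization gave 0 higher and 8 lower, beside 4583 and 4318 of all genes with that median at 0.03. The split with LPS was 0 higher and 10 lower with TPM and 0 higher and 9 lower with quantile normalization, with the median of all genes at 0.12 and 0.09 and 5224 higher and 4306 lower, and 5194 and 4328, of all genes. These contrasts share libraries with the LPS contrasts and are not independent of them.

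**Figure D3:**
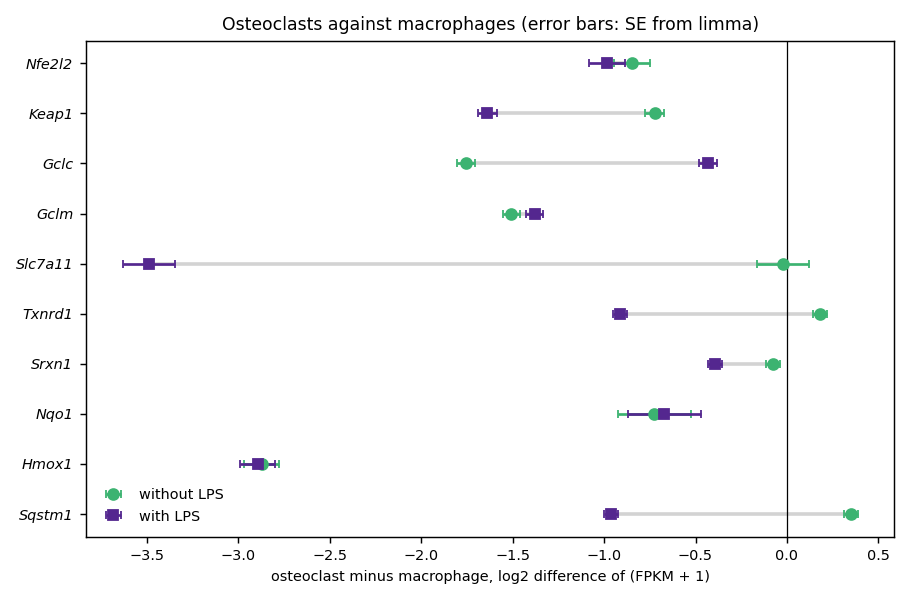
Osteoclast minus macrophage log2 difference of FPKM + 1 (horizontal axis) for each of the 10 genes, without LPS (circles) and with LPS (squares), with the SE from limma as error bars. With LPS every gene lies left of 0, from -0.39 for Srxn1 to -3.49 for Slc7a11, while without LPS Sqstm1 and Txnrd1 lie right of 0, at 0.35 and 0.18.

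FPKM is per length, so levels can be ordered between genes within a group. The length is that of all annotated exons, which may exceed the transcript expressed. Close neighbours in the order are therefore uncertain even where their libraries do not overlap. In untreated macrophages the order was Hmox1, Sqstm1, Txnrd1, Srxn1, Gclm, Gclc, Nfe2l2, Keap1, Nqo1 and Slc7a11, and no neighbours overlapped. After LPS it was Sqstm1, Hmox1, Txnrd1, Srxn1, Nfe2l2, Gclm, Slc7a11, Keap1, Gclc and Nqo1, in which Nfe2l2 overlapped Gclm and Gclm overlapped Slc7a11. In untreated osteoclasts it was Sqstm1, Txnrd1, Srxn1, Hmox1, Gclm, Nfe2l2, Gclc, Keap1, Nqo1 and Slc7a11, with Srxn1 and Hmox1 overlapping. In treated osteoclasts it was Sqstm1, Txnrd1, Srxn1, Hmox1, Nfe2l2, Gclm, Gclc, Keap1, Slc7a11 and Nqo1, with the last pair overlapping. Hmox1 thus stood at the top in untreated macrophages and below Sqstm1, Txnrd1 and Srxn1 in treated osteoclasts.

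The factors that share DNA elements or partners with NRF2 were measured beside it. The counts for these factors and for the lists that follow stand beside 69.9% of all genes tested called for LPS in macrophages, 17.7% for LPS in osteoclasts and 77.8% between untreated cell types. Of 13 listed regulators 9 were tested, and LPS raised 6 and lowered 1 in macrophages and raised 3 and lowered 1 in osteoclasts. Bach1, the repressor that competes with NRF2, rose from 15.9 ± 0.698 to 128 ± 3.64 FPKM (SD, n = 3) in macrophages (8.07-fold, log2 difference 2.94 ± 0.05 SE, adjusted p = 4.22e-13). In osteoclasts Bach1 fell from 9.14 ± 0.396 to 6.95 ± 0.474 FPKM (-0.35 ± 0.05 SE, adjusted p = 5.82e-04), and after LPS it was 18.4-fold lower than in macrophages (adjusted p = 2.08e-14). Mafk, a small MAF partner, rose from 4.31 ± 0.386 to 40.6 ± 2.08 FPKM in macrophages (9.43-fold, adjusted p = 6.88e-13). Another partner, Mafg, fell there from 28.3 ± 1.38 to 9.26 ± 0.465 FPKM (log2 difference -1.51, adjusted p = 8.72e-10). In osteoclasts Maff rose from 5.34 ± 0.765 to 12.1 ± 0.527 FPKM (1.05 ± 0.09 SE, adjusted p = 3.91e-06). With TPM the macrophage split of the regulators was 5 higher and 4 lower, and 5 higher and 2 lower with quantile normalization. The osteoclast split was 1 higher and 1 lower with TPM and 2 and 1 with quantile normalization, and 2 genes in all were called without untreated osteoclast replicate 1. Mafk overlaps a gene on the opposite strand, and their shared reads cannot be told apart unless strand was used in counting. Mafg overlaps Sirt7 on the same strand, so shared reads cannot be assigned between Mafg and Sirt7.

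Other genes of glutathione and thioredoxin metabolism were compared in the same way. Of 24 glutathione genes 19 were tested, and 10 rose and 0 fell with LPS in macrophages, a split that was 2 higher and 11 lower with TPM and 6 and 6 with quantile normalization. In osteoclasts limma called 0 of the 19, with 2 at an unadjusted p under 0.05, 0 called by voom on recovered reads and 2 with quantile normalization. Leaving out untreated macrophage replicate 3 or LPS-treated osteoclast replicate 3 gave 1 call, and leaving out LPS-treated osteoclast replicate 2 gave 2. Between cell types without LPS, 9 of the 19 were higher and 6 lower in osteoclasts (9 and 9 with TPM, 10 and 7 with quantile normalization). Mgst1 and Mgst3, both microsomal glutathione transferases, went opposite ways. Mgst1 had 29.9 ± 0.984 FPKM in macrophages against 3.50 ± 0.486 FPKM in osteoclasts (log2 difference -2.78 ± 0.17 SE, adjusted p = 1.31e-08), and Mgst3 at 21.9 ± 1.28 and 95.0 ± 4.36 FPKM (2.07, adjusted p = 1.95e-10). Of 17 thioredoxin and peroxiredoxin genes, LPS raised 9 and lowered 5 in macrophages (3 and 10 with TPM, 5 and 9 with quantile normalization) and raised 2 and lowered 2 in osteoclasts (2 and 2 with TPM, 2 and 3 with quantile normalization). The osteoclast count of 4 fell to 2 without untreated osteoclast replicate 1 or 3 and rose to 6 without LPS-treated osteoclast replicate 2. Untreated osteoclasts had 7 of the 17 higher and 8 lower than untreated macrophages (6 and 11 with TPM, 7 and 9 with quantile normalization).

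Within the thioredoxin list, Txnip, which encodes an inhibitor of thioredoxin, fell with LPS from 69.8 ± 2.36 to 17.7 ± 0.364 FPKM in macrophages (log2 difference -1.92, adjusted p = 2.75e-11) and from 65.7 ± 2.57 to 35.9 ± 3.18 FPKM in osteoclasts (-0.86, adjusted p = 6.62e-07). Prdx5, a peroxiredoxin, rose from 91.3 ± 0.880 to 236 ± 3.32 FPKM in macrophages (1.36, adjusted p = 2.03e-09; 0.72 with TPM and 0.51 with quantile normalization) and from 25.4 ± 1.47 to 37.9 ± 4.06 FPKM in osteoclasts (0.55, adjusted p = 8.45e-05). Sesn1, a sestrin, fell from 29.9 ± 2.52 to 1.70 ± 0.234 FPKM in macrophages (17.6-fold lower, adjusted p = 9.03e-13). Prdx3, the mitochondrial peroxiredoxin, was higher in untreated osteoclasts than in untreated macrophages, at 131 ± 5.63 against 33.0 ± 1.31 FPKM (1.95, adjusted p = 2.61e-11). Txnip and Prdx5 overlap genes on the opposite strand.

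NADPH is the reductant of Txnrd1 and Nqo1, and 10 genes were listed for its supply and for linked reactions. LPS raised 6 and lowered 0 of these in macrophages, but 0 and 9 with TPM and 2 and 7 with quantile normalization. In osteoclasts it raised 1 and lowered 0, but 0 and 2 with TPM and 0 and 3 with quantile normalization. Untreated osteoclasts had 5 of the 10 higher and 3 lower than untreated macrophages, with a median log2 difference of 0.15. With TPM the split was 3 and 6 with a median of -0.27, and with quantile normalization 4 and 5 with a median of -0.13. Mthfd2, a mitochondrial enzyme of folate metabolism, was higher, at 18.6 ± 0.978 against 8.53 ± 1.00 FPKM (2.18-fold, log2 difference 1.04, adjusted p = 1.08e-07; 0.70 with TPM). G6pdx, the entry enzyme of the pentose phosphate pathway, was at 68.5 ± 0.439 FPKM in untreated macrophages and 19.0 ± 0.572 FPKM in untreated osteoclasts (log2 difference -1.80, adjusted p = 5.39e-12). Of 17 tested of 20 listed detoxification genes, LPS raised 8 and lowered 4 in macrophages (2 and 13 with TPM, 4 and 11 with quantile normalization) and raised 1 and lowered 1 in osteoclasts (1 and 4 under either scaling). Between untreated cell types, 6 of the 17 were higher and 10 lower in osteoclasts (3 and 12 with TPM, 5 and 11 with quantile normalization). Osgin1, a growth inhibitor known as an NRF2 target, fell from 13.7 ± 0.842 to 0.948 ± 0.158 FPKM in macrophages (14.4-fold lower, adjusted p = 1.21e-11) and from 8.80 ± 0.907 to 5.97 ± 0.299 FPKM in osteoclasts (log2 difference -0.49, adjusted p = 0.00104). Abcc1, an exporter of glutathione conjugates, rose from 17.6 ± 0.123 to 40.8 ± 0.771 FPKM in macrophages (1.17, adjusted p = 4.61e-11; 0.56 with TPM and 0.72 with quantile normalization) and from 14.5 ± 0.282 to 17.5 ± 0.694 FPKM in osteoclasts (0.25, adjusted p = 4.98e-04). Abcc3, a related exporter, was at 34.2 ± 0.854 FPKM in untreated macrophages and 1.99 ± 0.199 FPKM in untreated osteoclasts (-3.56, adjusted p = 1.82e-10). The exons of G6pdx overlap a gene on the opposite strand.

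Around Hmox1, 9 of 10 listed genes of haem degradation and ferritin were tested, and 1 was higher and 8 lower in untreated osteoclasts than in untreated macrophages. Their median log2 difference was -0.90, against 0.00 over all genes, with the same split and medians of -1.32 with TPM and -1.76 with quantile normalization. Slc40a1, the iron exporter ferroportin, had 8.80 ± 0.642 FPKM in macrophages against 1.06 ± 0.153 FPKM in osteoclasts (-2.25, adjusted p = 2.57e-11). Flvcr1, a haem exporter, was the 1 that was higher, at 8.89 ± 0.671 and 21.0 ± 0.912 FPKM (1.16, adjusted p = 7.33e-09). LPS raised 2 and lowered 5 of the list in macrophages, 0 and 8 with TPM or quantile normalization. In osteoclasts it raised 0 and lowered 1, and 0 and 2 under either scaling, and 2 were called without LPS-treated osteoclast replicate 1. Flvcr1 overlaps a gene on the opposite strand.

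Beside Sqstm1, all 12 listed autophagy receptors and LC3 genes were tested. LPS raised 7 and lowered 4 in macrophages (2 and 10 with TPM, 3 and 7 with quantile normalization), while limma called 0 in osteoclasts, with 2 at an unadjusted p under 0.05 and 1 called each by voom on recovered reads, with TPM and with quantile normalization. Leaving out LPS-treated osteoclast replicate 2 or 3 also gave 1 call. The receptor genes Tax1bp1 and Optn rose in macrophages from 13.6 ± 0.425 to 42.7 ± 4.96 FPKM (log2 difference 1.58, adjusted p = 4.26e-09; 0.98 with TPM) and from 5.41 ± 0.416 to 17.1 ± 1.34 FPKM (1.50, adjusted p = 4.24e-09; 0.98 with TPM). Nbr1, a receptor related to p62, fell there from 11.0 ± 0.361 to 6.31 ± 0.402 FPKM (-0.72, adjusted p = 1.84e-07; -1.40 with TPM). Without LPS, 8 of the 12 were higher and 3 lower in osteoclasts, 4 and 5 with TPM and 7 and 5 with quantile normalization. Nbr1 was higher in osteoclasts, at 36.5 ± 0.374 FPKM (1.64, adjusted p = 5.38e-11), as was Map1lc3a, which encodes an LC3 protein, at 75.4 ± 9.37 against 11.3 ± 0.761 FPKM (2.63, adjusted p = 3.96e-10). Optn and Tax1bp1 overlap genes on the opposite strand.

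Because Slc7a11 is also a target of ATF4, 15 ATF4 target genes were listed and 12 tested. LPS raised 6 and lowered 3 in macrophages, 3 and 8 with TPM and 5 and 5 with quantile normalization. In osteoclasts it raised 1 and lowered 0, and 1 and 3 with quantile normalization. Leaving out LPS-treated macrophage replicate 1 or 3, or LPS-treated osteoclast replicate 2 or 3, gave 2 calls there. Atf3, a stress-responsive factor, rose from 45.3 ± 2.57 to 291 ± 5.96 FPKM in macrophages (log2 difference 2.66 ± 0.15 SE, adjusted p = 1.06e-08) and from 3.71 ± 0.502 to 10.3 ± 3.16 FPKM in osteoclasts (1.24, adjusted p = 1.19e-04). Sesn2 fell in macrophages from 4.09 ± 0.206 to 0.776 ± 0.0669 FPKM (-1.52, adjusted p = 3.45e-10; -2.53 with TPM and -2.38 by voom on recovered reads). Between untreated cell types 5 of the 12 were higher and 7 lower in osteoclasts (4 and 7 with TPM, 5 and 6 with quantile normalization), with a median log2 difference of -0.63, or -1.12 with TPM and -0.61 with quantile normalization. Atf3 was 12.2-fold lower in untreated osteoclasts (-3.30, adjusted p = 9.15e-10), and Cebpb, a factor of myeloid cells, was at 11.0 ± 0.261 FPKM against 63.9 ± 4.29 FPKM (-2.44, adjusted p = 7.34e-09). Asns, asparagine synthetase, was at 4.14 ± 0.316 FPKM in untreated macrophages and 15.6 ± 0.462 FPKM in untreated osteoclasts (1.70, adjusted p = 7.37e-11). Cebpb overlaps a gene on the opposite strand.

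**Figure D4:**
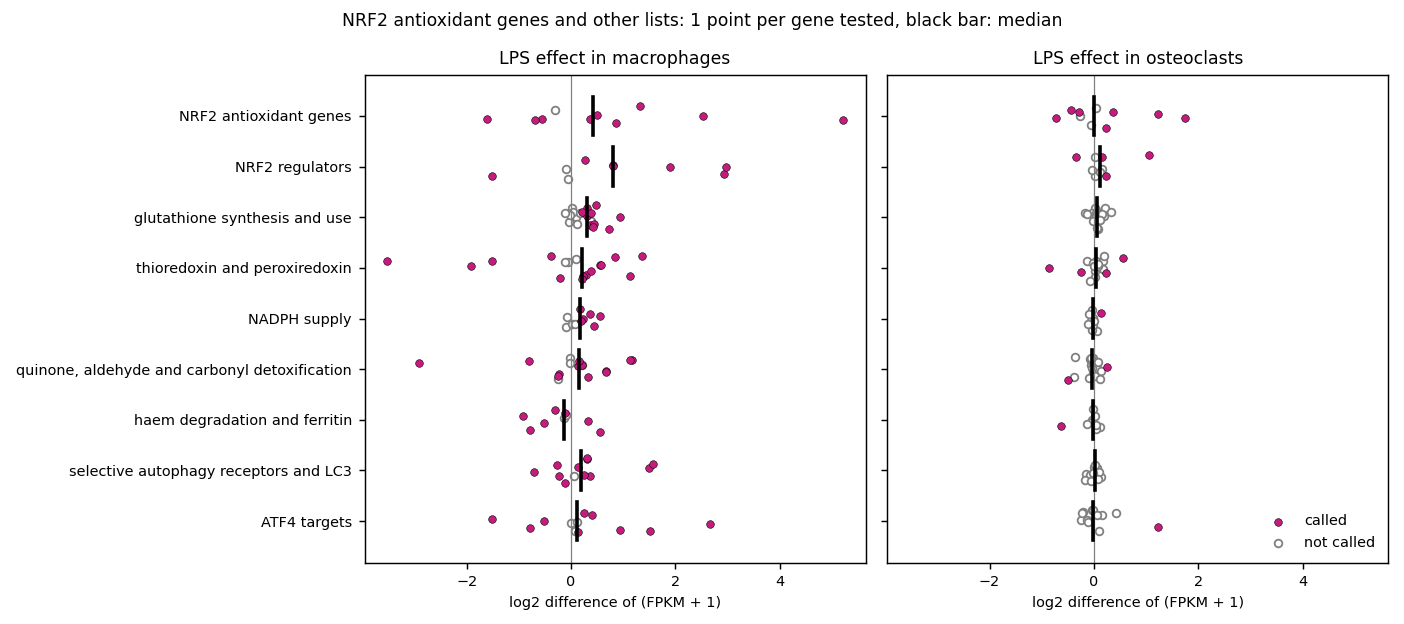
Log2 difference of FPKM + 1 with LPS (horizontal axis) for each tested gene of the 10 NRF2 antioxidant genes and of the other lists, in macrophages (left) and osteoclasts (right); filled points were called by limma and black bars are medians. In osteoclasts the medians run from -0.04 to 0.12, and in macrophages from -0.14 for haem degradation and ferritin to 0.80 for the regulators.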

How the data were processed

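RNA sequencing values of 12 libraries were used, grouped by the sample titles. The authors deposited FPKM per Ensembl gene. The submitters' processing notes name fastp, STAR, featureCounts, DESeq2 and build mm10 without versions or roles; the annotation and the use of strand are not given in the sources used here. Whole reads were recovered from the steps of the deposited FPKM for all 25854 genes above 0 (tolerance 0.02 of a read), and gene lengths matched GENCODE M21 for 96.7%. The denominators matched median-of-ratios size factors, so values are inferred to be scaled to the typical gene. Gene positions come from that annotation (build GRCm38).

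The filter kept genes that reached 1 FPKM in 3 or more libraries. A single model of 4 group means over the 12 libraries was fitted to log2(FPKM + 1) with limma 3.58.1 (R 4.3.3; eBayes with a variance trend), and tests were two-sided with Benjamini-Hochberg adjustment. The procedure was tested on simulated data with 200 genes changed in LPS-treated macrophages only and equal dispersion in all groups. The real libraries had unequal noise and far more genes called, so the simulation does not cover those conditions. The alternatives tried were no filter, a stricter one (mean FPKM of 5 or more), a pseudocount of 0.1, rescaling to TPM, quantile normalization, voom on recovered reads, a replicate block, only the groups compared, and each library left out. The genes and lists were chosen with earlier results of these data known. All 10 genes are named; of other lists, called genes with the 2 highest or 2 lowest log2 differences in a contrast could be named if their mean was at least 1 FPKM and the groups did not overlap, and which of these to print was decided after their values were seen. The 2 genes most like each of the 10 were those with the highest Pearson r over the libraries.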

Additional observations from a re-analysis of the deposited data

Results flagged for a closer look

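For 6 of the 10 genes LPS had unequal effects in macrophages and osteoclasts by limma's interaction term (osteoclast minus macrophage, log2 scale, adjusted over all genes tested). Of all genes 56.6% had a called interaction, so the share among the 10 was near that of all genes. Slc7a11 had -3.47 (adjusted p = 3.87e-08), a rise in both cell types that was lower in osteoclasts. Sqstm1 had -1.31 (adjusted p = 2.17e-09) and Txnrd1 -1.09 (adjusted p = 8.07e-09), again with a rise in both. With TPM these were -0.73 and -0.52, and with quantile normalization -0.52 and -0.38. Keap1 had -0.91 (adjusted p = 5.41e-07; -0.40 with TPM), with a called rise in macrophages and none called in osteoclasts. Gclc had 1.32 (adjusted p = 1.65e-08), a fall in both that was smaller in osteoclasts. Srxn1 had -0.32 (adjusted p = 3.67e-04), and its direction turned to 0.26 with TPM and 0.37 with quantile normalization.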

How the results depend on the processing

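The number of the 10 genes called stayed within 1.5 times of that reported under every alternative run. With 1 library left out it was 9 to 9 for LPS in macrophages, 6 to 7 for LPS in osteoclasts, 8 to 8 and 10 to 10 between cell types without and with LPS, and 6 to 7 for the interaction. Of 385 values of single genes under other alternatives, 358 kept direction and side of the threshold, and of 600 with 1 library left out, 586 did. Rescaling to TPM and quantile normalization turned the direction of the LPS effect on Nfe2l2 in macrophages (-0.14 and -0.10), of Srxn1 in macrophages (-0.28 and -0.43) and osteoclasts (-0.028 and -0.059), of Txnrd1 (-0.23 and -0.15) and Sqstm1 (-0.068 and -0.068) between untreated cell types, and of the interactions of Nfe2l2 (0.44 and 0.38), Srxn1 (0.26 and 0.37) and Hmox1 (0.55 and 0.83). Quantile normalization alone turned Slc7a11 between untreated cell types (0.12), and a pseudocount of 0.1 the interaction of Nqo1 (-0.0077). With 1 library left out, the interaction ran from -0.21 to 0.0012 for Nfe2l2, from -0.20 to 0.29 for Nqo1 and from -0.11 to 0.11 for Hmox1; none of these was called. The LPS effect on Nfe2l2 in osteoclasts also lost its call with no filter (adjusted p = 0.0736), quantile normalization (0.0651) and only the groups compared (0.0944). Apart from the scalings, whose effect on levels follows from their construction, the cause was not tested. Total counts over all genes changed by more than 1.5 times only at a mean of at least 5 FPKM, which tests fewer genes: 4851 against 7921 for LPS in macrophages, 5427 against 8822 and 5694 against 9509 between cell types without and with LPS, and 4018 against 6413 for the interaction. The split of those totals by direction moved further with TPM, from 4168 higher and 3753 lower to 1797 and 7933 for LPS in macrophages, and from 3012 and 3401 to 7175 and 1572 for the interaction. Voom on the recovered reads called 7948 genes for LPS in macrophages and 2410 for LPS in osteoclasts, against 7921 and 2008. Fitting only the groups compared called 1394 genes for LPS in osteoclasts, so that total depends on the spread shared by all 4 groups.

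Same-numbered libraries of a cell type deviated together with correlations of 0.104, 0.0967 and -0.0529 in macrophages and 0.0718, 0.0828 and 0.0289 in osteoclasts, so the numbers were not taken to pair libraries, and not every library correlated best with its own number. With the replicate number as a block, limma called 9 of the 10 genes for LPS in macrophages and 7 for LPS in osteoclasts, 8 and 10 between cell types, and 6 for the interaction, and 7914 and 1930 of all genes for LPS in macrophages and osteoclasts. Depth limits Nqo1, at 30 to 209 reads per library, and Slc7a11 in untreated cells; 3 libraries per group limit the precision of all values.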

Other observations

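For each of the 10 genes, the genes whose log2(FPKM + 1) followed it most closely over the 12 libraries were found among 5448 tested genes whose group means spanned at least 1 on that scale. The libraries share 4 groups, so these values of Pearson's r describe group patterns and carry no p. Slc7a11 was followed by Ifi205 (0.999) and Il6 (0.999), the latter an inflammatory cytokine gene. Sqstm1 was followed by Adamts4 (0.994) and Malt1 (0.992), and Txnrd1 by Znfx1 (0.998) and Sav1 (0.997). Keap1 was followed by Ankfy1 (0.998) and Med12 (0.998), and Nfe2l2 by Gm36161 (0.990) and Itgal (0.989). Srxn1 was followed by Sgms1 (0.987) and Odc1 (0.986), the latter encoding ornithine decarboxylase. Hmox1 was followed by Tgfbi (0.999) and B430306N03Rik (0.998), Gclc by Map1s (0.997) and Gab3 (0.996), and Gclm by Dhrs3 (0.996) and Osbpl11 (0.995). Nqo1 was followed less closely, by Bcl2l12 (0.921) and Syt11 (0.900).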
